A study of Mus musculus with 4 samples.

Results

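8 genes of the endoplasmic reticulum (ER) chaperone response were described in whole skeletal muscle of normal mice: Hspa5, Hyou1, Dnajb9, Pdia4, Sdf2l1, Creld2, Herpud1 and Xbp1. They were chosen by name, and all 8 were measured among the 12393 genes that had a probe set assigned to that gene alone. The 8 genes had 16 such probe sets. The brightest by mean over the samples stood for the gene, and the other 8 probe sets served as a check. The samples were 4 samples of bulk normal muscle from wild type mice of mixed 129S4/SvJae and C57BL/6 strain background, titled nm7, nm8, skm4 and skm5, with 1 Affymetrix array each. They carried no transgene, allele or treatment in their labels, which give no age, no named muscle and no statement that the samples came from separate animals. The rest of the series, rhabdomyosarcomas from Pax7-expressing progenitors and pleomorphic sarcomas from injected Cre virus, was not analysed here. Values are log2 expression values from robust multi-array averaging (RMA), so a difference of 1 is 2-fold.

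The ER folds proteins that are bound for membranes and for secretion. When unfolded proteins build up, the sensors IRE1, PERK and ATF6 start the unfolded protein response: IRE1 splices Xbp1 mRNA into the form that encodes an active transcription factor, ATF6 is cut to release another, and PERK slows translation. XBP1 and ATF6 then raise the transcription of ER chaperones, folding enzymes and degradation factors. In muscle fibres the ER is largely built into the sarcoplasmic reticulum, the calcium store of contraction, while the fibroblasts and plasma cells that lie between fibres secrete heavily. In bulk tissue, fewer cells of a type and less RNA per cell cannot be told apart.

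Promoter windows of the members were searched for exact matches to the known ER stress elements. RefSeq windows of the GRCm38.p6 assembly, from 250 bases before to 50 after the start of transcription, were matched by symbol for 7 of the 8 members, all but Hyou1. The ER stress response element (ERSE) was searched on both strands as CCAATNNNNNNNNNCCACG, and ERSE-II as ATTGG and CCACG with 1 free base between them. An ERSE was found in Hspa5 and Creld2 and in 0.119% of 32851 windows, and an ERSE-II in Herpud1 and in 0.0365%. The stretches around these matches are shown 5′ to 3′ on the gene's strand, with the fixed bases of the element in capitals; in Creld2 the element runs on the opposite strand.
Hspa5, chr2:34771995-34772073, plus strand: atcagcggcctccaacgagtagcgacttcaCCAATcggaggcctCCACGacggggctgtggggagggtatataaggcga
Creld2, chr15:88819490-88819568, plus strand: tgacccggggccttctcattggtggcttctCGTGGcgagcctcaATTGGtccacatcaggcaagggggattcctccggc
Herpud1, chr8:94386347-94386417, plus strand: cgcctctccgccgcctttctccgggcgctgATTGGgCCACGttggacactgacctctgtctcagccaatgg
The Hspa5 element began 65 bases before the start, the Creld2 element covered bases 126 to 108 before it, and the Herpud1 element began 52 bases before it. A looser element without the last pair of bases, CCAATNNNNNNNNNCCA, which overlaps every ERSE, was found in 4 of the 7 windows and in 1.09% of all. It lay in Hspa5 at 2 places, in Creld2, in Herpud1 and in Pdia4. The core TGACGTG of the unfolded protein response element was found in Hspa5 and in 2.01% of windows. The shorter CCAAT, which is part of both ERSE forms, was in 6 of the 7 windows and in 37.4% of all, and the Xbp1 window matched none of these elements. A match describes letters in the window and does not show that a factor binds there. A lack of a match holds for these exact letters in this window only.

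By their brightest probe sets, the members varied between the 4 samples about as much as the median gene did. None of them passed the test between the title prefixes. The labels name 1 group and do not say what nm and skm stand for, so the prefix was tested only as a division of the samples, with limma over all genes and Benjamini-Hochberg adjustment. The median SD of the 8 members was 0.20 (n = 4), and that of all genes was 0.19. These were 0.13 and 0.18 without nm7, and 0.23 and 0.17 with the mean of probe sets. Of the members, 4 had an SD above that of the median gene, and 0 had a range over 1, against 5.98% of all genes. Among all member probe sets, 2 had a range over 1, and neither stood for its gene. Between the prefixes 0 of 8 passed at an adjusted p under 0.05, where 0.0323% of all genes did, and their adjusted p ran from 0.101 to 0.987. At an unadjusted p under 0.05 there were 2 members, Hspa5 and Sdf2l1, both lower in skm, against 13% of all genes in that direction. With 2 samples against 2, an exact permutation test of a single gene cannot give a p below 0.333.

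Directions were mixed. The skm minus nm difference was below 0 for 5 of the 8 members, against 50.5% of all genes, and its median was -0.18, against -0.00 for all genes. That median was -0.05 without nm7, -0.28 without nm8 and -0.09 when the probe sets of each gene were averaged. In 4 members, Hspa5, Pdia4, Sdf2l1 and Xbp1, both skm samples read below both nm samples, as in 28.6% of all genes, and in 0 members did they read above, against 25.8%. The highest value was in nm7 for 4 of the 8 members, Hspa5, Pdia4, Creld2 and Xbp1, against 22.9% of all genes. Of the other members, Sdf2l1 was highest in nm8, Herpud1 in skm4, and Dnajb9 and Hyou1 in skm5.

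**Figure D1:**
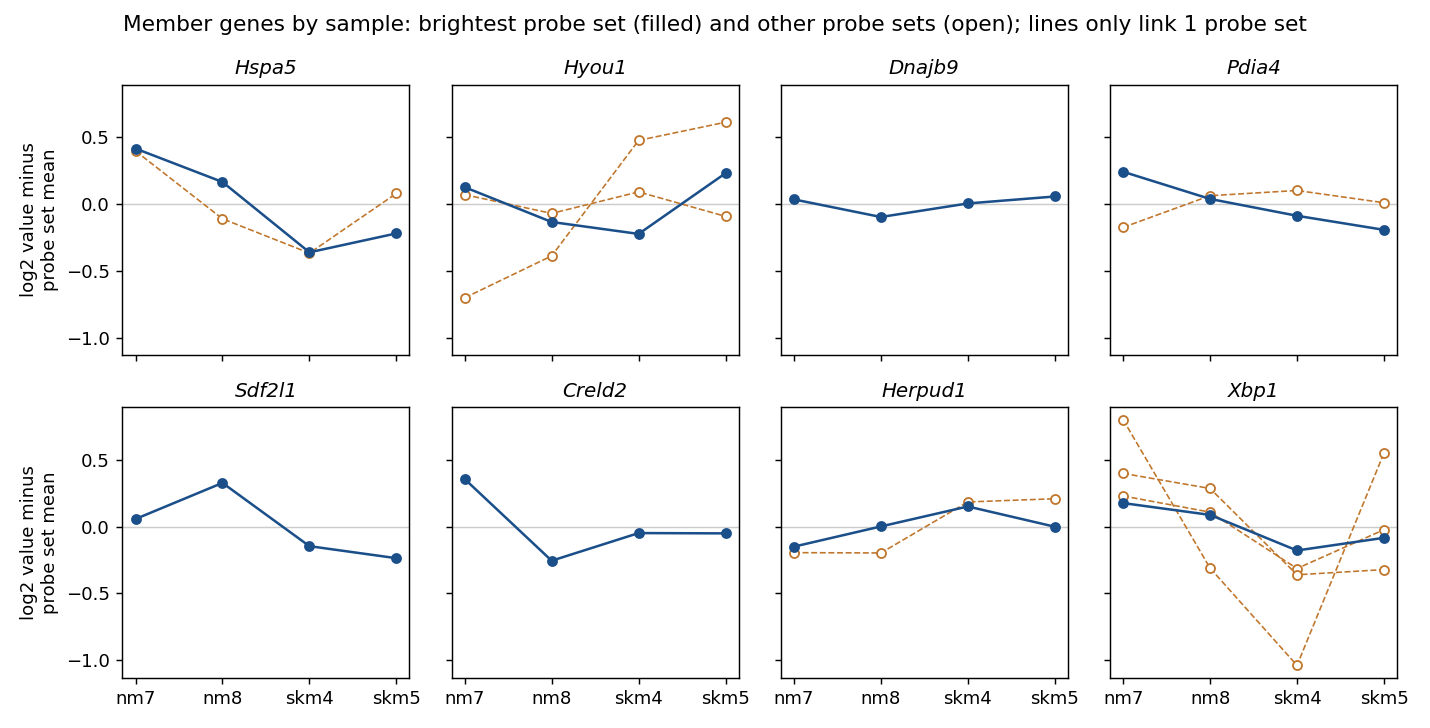
Level of each member by sample, as the log2 value minus the mean of the probe set over the 4 samples; filled points are the brightest probe set, open points the others, and lines only link the values of 1 probe set. Hspa5 is high in nm7 and nm8 and low in skm4 and skm5 by its brightest probe set, Dnajb9 is nearly level, and the probe sets of Hyou1 and Xbp1 part from each other.

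Hspa5, which encodes BiP, the Hsp70 chaperone of the ER lumen that also holds the stress sensors inactive, had the largest difference and the largest SD among the probe sets that stood for the members. It read 11.93 (nm7), 11.68 (nm8), 11.16 (skm4) and 11.30 (skm5). The nm samples were both above the skm samples, and the gap between the prefixes was wider than the spread within either. The difference of skm minus nm was -0.58 ± 0.14 (SE of the limma fit, n = 2 per prefix), or 1.49-fold, with an SD of 0.35 over the 4 samples, which is at percentile 86.3 of all genes. It did not pass the test (limma, adjusted p = 0.101). Its adjusted p ran from 0.0219 to 0.330 over 10 alternatives. It passed with an intensity trend in eBayes, where 8.96% of all genes passed, and when only genes as bright as the median gene or brighter were tested, where 16.6% did. The second probe set of Hspa5 read 10.88, 10.37, 10.12 and 10.56 in nm7, nm8, skm4 and skm5. There the prefixes overlapped, since skm5 was above nm8, and the difference was -0.29 ± 0.23. Both probe sets placed nm7 highest and skm4 lowest.

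Hyou1 encodes GRP170, a large relative of Hsp70 that helps BiP exchange ADP for ATP. It read 9.30 (nm7), 9.04 (nm8), 8.95 (skm4) and 9.40 (skm5). Each prefix held a higher and a lower sample, and the difference was 0.01 ± 0.19. A dimmer probe set of the same gene read 6.75, 7.07, 7.93 and 8.07 in that order. It was higher in both skm samples, by 1.09 ± 0.16, and in the fit of 20380 probe sets it passed at an adjusted p of 0.0462 (limma), as did 1.6% of them. The third probe set read 3.72 to 3.90 over the samples. That is the level of the bacterial TrpnX control probe sets, whose mean was 3.66 to 3.87, so it was not above background. The probe sets of Hyou1 above background therefore differ in size, and the value for the gene depends on which of them is read: without the probe sets whose names end in _x_at or _s_at, Hyou1 stood at 1.09 and passed, as did 1.17% of genes (limma, adjusted p = 0.0490; range over its alternatives 0.0490 to 0.987). Which of the probe sets follows the transcript was not tested.

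Dnajb9 encodes ERdj4, a J-domain partner of BiP that is induced by spliced XBP1. It was the steadiest member. It read 10.90 (nm7), 10.77 (nm8), 10.87 (skm4) and 10.92 (skm5), an SD of 0.07 at percentile 6.7 of all genes. The samples of the prefixes interleaved, and the difference was 0.06 ± 0.12 (adjusted p = 0.809). Its partner Hspa5 spanned a range of 0.78 over the same samples, against 0.15 for Dnajb9.

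Pdia4 encodes ERp72, a protein disulfide isomerase. It read 8.87 (nm7), 8.67 (nm8), 8.54 (skm4) and 8.44 (skm5). Both skm samples lay below both nm samples, but nm8 and skm4 were only narrowly apart. The difference was -0.28 ± 0.13 (adjusted p = 0.277), and it was -0.18 without nm7. Its dim second probe set read 4.89, 5.13, 5.16 and 5.07, with an overlap of the prefixes and a difference of 0.11 ± 0.14. The direction for Pdia4 thus came from the bright probe set alone, and with the mean of both the difference was -0.08.

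Sdf2l1 encodes a small lumenal protein that works with BiP and its J-domain partners, and it had a single probe set. It read 7.24 (nm7), 7.51 (nm8), 7.04 (skm4) and 6.95 (skm5). The skm samples were again the lower ones, with a difference of -0.38 ± 0.14 (adjusted p = 0.191), which was -0.25 without nm8. Its mean and that of Creld2 lay under the median gene level of 7.86.

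Creld2, which encodes an ER protein with EGF-like repeats that is induced by ER stress, also had a single probe set. It read 7.98 (nm7), 7.37 (nm8), 7.58 (skm4) and 7.58 (skm5). Here nm7 and nm8 were the highest and the lowest sample, and the skm samples lay between them at nearly equal values. The difference was -0.10 ± 0.22, and it was 0.21 without nm7 and -0.40 without nm8, so its sign rested on single samples. Creld2 and Hspa5, which share the ERSE shown above, had nm7 as their highest sample, while nm8 was the second highest for Hspa5 and the lowest for Creld2.

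Herpud1 encodes a membrane protein that assembles the machinery by which misfolded proteins leave the ER for degradation. It read 11.12 (nm7), 11.27 (nm8), 11.42 (skm4) and 11.26 (skm5). It was lowest in nm7 and highest in skm4, the reverse of Hspa5, and nm8 and skm5 were alike. The difference was 0.15 ± 0.13 (adjusted p = 0.551). It was 0.07 without nm7 or without skm4, 0.22 without nm8 or without skm5, and 0.27 with the mean of probe sets. The second probe set read 9.93, 9.93, 10.31 and 10.34, higher in both skm samples by 0.39 ± 0.12, with an adjusted p of 0.146 over all probe sets (limma). Of the genes whose windows held an ERSE or ERSE-II, Herpud1 stood above 0 on both probe sets and Hspa5 below 0 on both. Creld2, which also holds an ERSE, stood at -0.10 on its single probe set, and at 0.21 without nm7. None of these genes passed the test between the prefixes. Whether the form of the element goes with the direction was not tested.

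Xbp1 encodes the transcription factor whose mRNA IRE1 splices. The annotation does not say which probe set reads the spliced form, so splicing was not analysed here. It read 11.30 (nm7), 11.21 (nm8), 10.94 (skm4) and 11.04 (skm5), with both skm samples below both nm samples. The difference was -0.26 ± 0.12 (adjusted p = 0.264). All 4 probe sets of Xbp1 had a difference below 0. The dimmest read 6.86, 6.75, 6.10 and 6.14, a difference of -0.68 ± 0.13 with an adjusted p of 0.0623 over all probe sets (limma). The second brightest read 11.49, 10.38, 9.65 and 11.24. This probe set was high in nm7 and skm5 and low in nm8 and skm4, so it split each prefix, and its range of 1.84 was the widest of the 16 probe sets. The SD of Xbp1 was 0.16 by its brightest probe set and 0.36 by the mean of all 4, where the difference was -0.44.

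**Figure D2:**
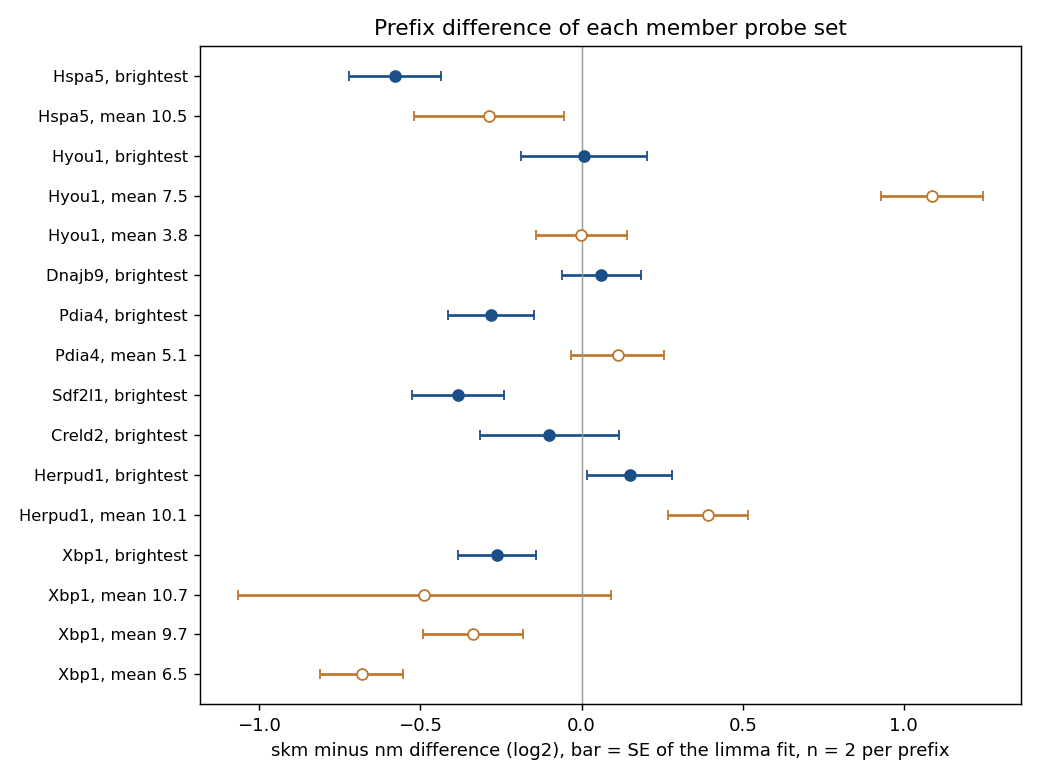
The skm minus nm difference of each of the 16 member probe sets on the log2 scale, with bars of 1 SE of the limma fit (n = 2 per prefix); filled points stand for the gene, and open points are the other probe sets, named by their mean log2 level. The points run from -0.68 for the dimmest Xbp1 probe set to 1.09 for 1 of the 3 Hyou1 probe sets, and 10 of the 16 lie below 0.

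Other genes of the ER and of the response were read from lists set by function. None of them passed the test over all genes in either direction, where 0.0323% of all genes did. When only genes as bright as the median gene or brighter were tested, 16.6% of those genes passed. In that fit 2 of 15 folding genes, 2 of 9 degradation genes and 3 of 10 translocation genes passed. So did 1 of 5 sensors and transducers and 1 of 5 genes of the PERK and ATF4 arm. Of 16 other ER folding genes, 13 had a difference below 0 and 3 above, against 50.5% of all genes below 0. Their median was -0.17, and -0.10 without skm4. In 9 of them both skm samples were below both nm samples, and in 1 above, against 28.6% and 25.8% of all genes. Ero1a and Ero1b, oxidases that recharge the disulfide isomerases, stood at -0.56 ± 0.15 and -0.53 ± 0.16. Pdia6, another disulfide isomerase, stood at -0.53 ± 0.12 (adjusted p = 0.0871), with values of 9.78 (nm7), 9.70 (nm8), 9.16 (skm4) and 9.26 (skm5). These 3 genes had the order of Hspa5 in that both nm samples were the higher ones.

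Genes of the ER membrane machinery went both ways. Of 10 measured ER translocation genes, 7 were below 0 (median -0.11, and -0.02 with the mean of probe sets). In 7 of the 10 both skm samples were below both nm samples, and in 2 above. The shares of all genes were 28.6% and 25.8%. Ssr1, a subunit of the translocon-associated complex, stood at -0.68 ± 0.13, Sec61b, a subunit of the translocation channel, at -0.65 ± 0.14, and Spcs2, a signal peptidase subunit, at 0.42 ± 0.12. Of 11 measured genes of ER-associated degradation, to which Herpud1 belongs by function, 4 were below 0 and 7 above. Their median was 0.06, and 0.14 with the mean of probe sets. In 4 of the 11 both skm samples were below both nm samples, and in 5 above. Edem1, which picks out misfolded glycoproteins, stood at -0.50 ± 0.12, its relative Edem2 at 1.07 ± 0.37 and Ube2j1, a ubiquitin-conjugating enzyme of the ER membrane, at 0.46 ± 0.12. Edem2 read 7.14 (nm7), 6.00 (nm8), 7.79 (skm4) and 7.48 (skm5), with both skm samples above both nm samples and nm8 the lowest.

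Sensors and the PERK arm gave no common direction. Of 8 measured sensors and transducers, 3 were below 0 and 5 above (median 0.05). Leaving out nm7, nm8 or skm4 took that median to 0.01, 0.10 or -0.0042, and the mean of probe sets to -0.04. Eif2ak3, which encodes PERK, stood at -0.60 ± 0.16, with 8.79 (nm7), 8.43 (nm8), 7.95 (skm4) and 8.08 (skm5), the sample order of Hspa5. Atf6, the precursor of the factor that drives BiP, stood at -0.23 ± 0.12, and Nfya, a subunit of the factor that binds CCAAT, at 0.34 ± 0.15. Of 8 genes of the PERK and ATF4 arm, 5 were below 0 (median -0.11). Leaving out nm7 or skm4 took that median to -0.20 or -0.24, and leaving out nm8 or skm5 to -0.0027 or 0.03, so its sign rested on single samples. Chac1, a glutathione-degrading enzyme, read 7.26 (nm7), 9.50 (nm8), 9.43 (skm4) and 10.15 (skm5). It was low in nm7, the sample where Hspa5 was highest. Atf3, a stress-induced repressor, stood at -0.81 ± 0.29 and Asns, asparagine synthetase, at -0.58 ± 0.15.

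Chaperones of other compartments were read for comparison. Of 8 measured cytosolic heat shock genes, 7 were below 0, with a median of -0.73, which was -0.21 without nm7. In 5 of the 8 both skm samples were below both nm samples, and in 0 above, against 28.6% and 25.8% of all genes. Over all genes, 0 of the 8 passed the test. Among genes as bright as the median gene or brighter, 3 of 7 passed, all lower in skm, where 16.6% of genes passed. In that fit 1 of 7 mitochondrial chaperones passed, higher in skm. Hsp90aa1, the inducible cytosolic Hsp90, read 11.15 (nm7), 10.81 (nm8), 9.66 (skm4) and 10.25 (skm5), a difference of -1.02 ± 0.24 (adjusted p = 0.0905). Hspa1a and Hspa1b, near-identical inducible Hsp70 genes that the probes may not separate, were highest in nm7, at 8.82 and 9.29, against 7.17 to 7.63 and 7.68 to 7.92 in the other samples. Of 7 mitochondrial chaperones, 4 were below 0 and the median was -0.00, which was above 0 when arrays were centred on their median (0.03), with the mean of probe sets (0.09) and without nm7 (0.01). Lonp1, a matrix protease, stood at 0.53 ± 0.13, Hspe1, a co-chaperonin, at -0.36 ± 0.13 and Dnaja3, a J-domain protein, at 0.28 ± 0.12. Whether the members differ from these lists was not tested.

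**Figure D3:**
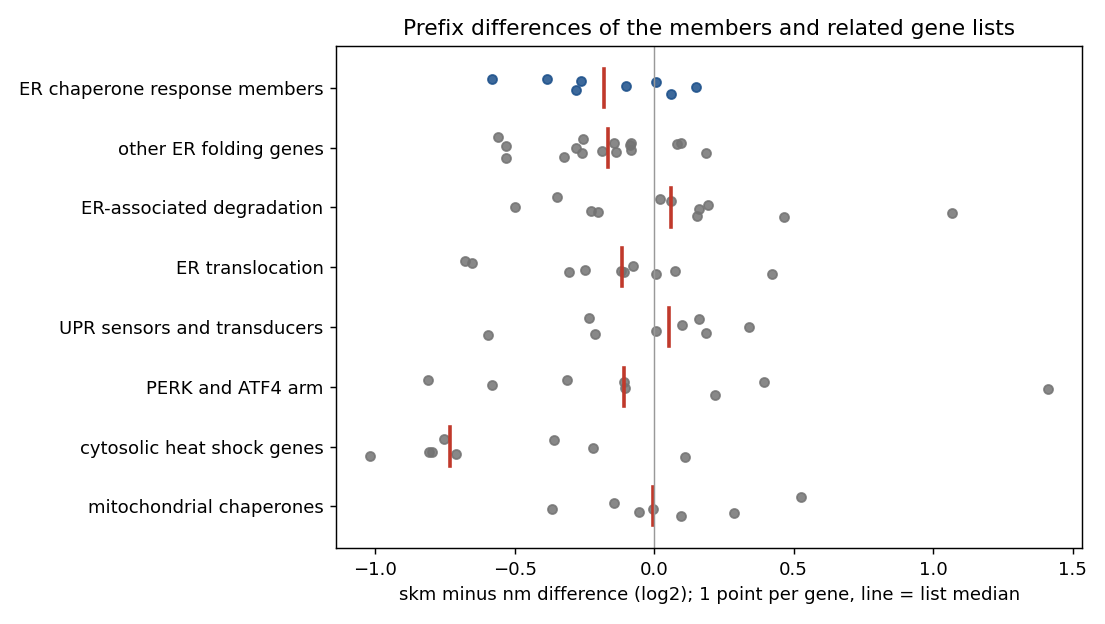
The skm minus nm difference on the log2 scale for the 8 members and for 7 lists of related genes, with 1 point per gene and a line at the list median. The members' median is -0.18 (-0.05 without nm7, -0.09 with the mean of probe sets), that of other ER folding genes is -0.17 (-0.10 without skm4), and cytosolic heat shock genes have the lowest median of these lists, -0.73 (-0.21 without nm7).

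By the root-mean-square difference of gene-centred values over the 4 samples, the genes nearest to Hspa5 among 2673 with a mean and an SD at or above those of the median gene were Gnai3 (0.010), Zfp386 (0.017), Rnf4 (0.017), Trip11 (0.024) and Birc6 (0.028). Gnai3, a G protein subunit, read 9.58, 9.30, 8.78 and 8.92 in nm7, nm8, skm4 and skm5. None of these 5 is a chaperone. The nearest member was Xbp1 at 0.17, and 715 of the ranked genes were nearer to Hspa5 than Xbp1 was. This measure depends on the size of the differences between samples as well as on their order. The ranked genes had an SD of 0.19 or more, while that of Xbp1 was 0.16. Pdia4, Dnajb9 and Herpud1 were also under that limit. By order alone, Xbp1 ranked the 4 samples as Hspa5 did. Herpud1 was the farthest member at 0.40.

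The prefix also went with other measures of the arrays and the tissue. Each is given as a value, and its part in the differences of the members was not tested. Skeletal muscle fibre markers, 7 of 7 measured, read 14.02 to 14.70 in every sample and thus bore out the tissue label. Acta1, skeletal actin, read 14.54 to 14.70 and Myh1, a fast myosin, 14.02 to 14.23. The highest value of any probe set was 14.76. These markers thus read near the top of the scale, where differences in fibre content may not show. The beta-actin control read higher at its 3′ than its 5′ probe set in nm7 and nm8, by 0.62 and 0.56, and lower in skm4 and skm5, by -0.45 and -0.44. The spiked-in DapX control went the other way: its 3′ minus 5′ difference was 2.35 and 2.39 in nm7 and nm8 and 3.07 and 2.93 in skm4 and skm5. Probe sets of 18S ribosomal RNA averaged 13.27 and 13.19 in nm7 and nm8 and 11.45 and 11.72 in skm4 and skm5. The clock gene Arntl read 8.53 and 8.46 in nm7 and nm8 and 6.65 and 6.76 in skm4 and skm5. Per2 read 5.08 and 4.03 against 7.62 and 7.50. Its value in nm8 was near background, since the TrpnX controls averaged 3.87 there, and this limits the size of its difference. Arntl was among the 4 genes that passed between the prefixes (limma, adjusted p = 0.0470). Another of them was the clock gene Per3, at 7.57, 7.56, 9.28 and 9.19 in nm7, nm8, skm4 and skm5 (limma, adjusted p = 0.0470). Per2 did not pass (limma, adjusted p = 0.0506).

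Markers of cells other than muscle fibres also differed between samples. Of the plasma and B cell list, 8 of 10 were measured, and the mean level was 7.16 (nm7), 7.19 (nm8), 6.11 (skm4) and 6.73 (skm5). Within it, Ms4a1, the B cell antigen CD20, read 8.23, 8.25, 4.85 and 6.97, and Cd79b, a B cell receptor chain, 7.81, 7.62, 5.66 and 6.38. The list did not move as 1. Sdc1 and Irf4, which plasma cells express, were both higher in skm, at 7.60, 7.33, 7.71 and 7.72 and at 5.58, 5.48, 5.82 and 6.63. Jchain and Prdm1, which plasma cells also express, were lower in both skm samples, with skm minus nm differences of -0.49 and -0.82. These genes were named after their values were seen. The 5 measured T cell markers of 6 had a mean level of 7.88, 8.34, 6.07 and 6.97 in the same order. The 7 fibroblast markers, all measured, had a mean of 12.58, 12.38, 12.19 and 12.40, with Fn1, fibronectin, at 11.52, 11.16, 10.62 and 11.07. The 6 macrophage markers, all measured, had a mean of 8.92, 8.84, 8.49 and 8.87, and the 6 keratinocyte markers one of 5.88, 6.37, 6.12 and 8.05, high in skm5 alone. The 5 measured adipocyte markers of 6 had a mean of 11.08, 11.22, 10.24 and 10.78, and 4 of them had a difference below 0. Lep, leptin, had the largest, with 9.28, 9.55, 6.80 and 7.50, while Cidec and Fabp4 stood at 0.01 and -0.01. The median difference of this list was -0.38, and 0.08 without skm4. Of the 5 endothelial markers, all measured, 4 had a difference below 0, while Pecam1, an adhesion molecule, read 7.77, 7.83, 8.92 and 9.29.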

How the data were processed

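The authors deposited log2 values for each probe set after RMA; the submitters' processing notes name Affymetrix Expression Console 1.1. Their range, 2.80 to 14.76, shows the log2 scale. The set of arrays that was normalized together is not named in the labels. Differences in such values can be narrowed close to background and at the bright end. Probe sets were named from the platform annotation, and symbols were updated through Entrez identifiers. Of 22690 probe sets, 20380 had 1 gene, 691 several, 1555 none and 64 were controls, which stayed out of the tests. The brightest probe set stood for each gene, with no filter. The fit used limma 3.58.1 (R 4.3.3; lmFit, then eBayes; skm against nm, 2-sided, threshold 0.05), and the script was tested on simulated data. The number of arrays limits the precision, and each p-value rests on the spread of these arrays alone, which may be technical.

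The members and lists were chosen with earlier results of these data known. The text names all members, up to 3 genes with the largest difference from each related list, and the 5 nearest to Hspa5. From marker and clock lists it names genes with the largest SD, with Arntl and Per2, though not every such gene. Per3 and some other genes of these lists were named after their values were seen. Alternatives were quantile normalization, median centring, a filter at the median gene level, the mean of probe sets, leaving out _x_at and _s_at probe sets, leaving out each sample, an intensity trend and probe sets in place of genes.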

Additional observations from a re-analysis of the deposited data

Results flagged for a closer look

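None of the 16 member probe sets had a sample that stood apart by Dixon's ratio at its 95% critical value for 4 samples. Among all 61 results examined, 2 had such a sample, where chance flags about 1 in 20. Hspa1b, a cytosolic Hsp70, read 9.29 in nm7 against 7.68 to 7.92 in the other samples. Dsp, which encodes desmoplakin of keratinocytes, read 8.33 in skm5 against 4.12 to 4.48.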

How the results depend on the processing

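Over the alternatives that give a value per gene, Hspa5, Pdia4, Sdf2l1 and Xbp1 kept a difference below 0 and Herpud1 above 0; among probe sets, the dim probe set of Pdia4 stood at 0.11. With 1 sample left out, the sign turned for Creld2 (-0.40 without nm8 to 0.21 without nm7), Hyou1 (-0.22 without skm5 to 0.23 without skm4; -0.12 without nm8) and Dnajb9 (-0.0042 without nm8 to 0.13 without nm7). The members called numbered 0 as reported and 0 with each sample left out, and 1 with the filter at the median gene level (Hspa5; 6 of 8 members were left), with an intensity trend (Hspa5), without _x_at and _s_at probe sets (Hyou1) and with probe sets in place of genes (Hyou1). All genes called numbered 4 as reported, 186 with quantile normalization, 1026 with the filter, 92 with the mean of probe sets, 142 without _x_at and _s_at probe sets, 1110 with an intensity trend, 326 with probe sets, and 0 to 15 with 1 sample left out, where the lone sample of a prefix is assumed to vary like the others. The cause was not tested. Without adjustment, 2918 genes had a p under 0.05 (limma). No paired analysis was possible because the samples form 1 group and the prefixes share no replicate number. Signal near the background limits the dimmest probe sets of Hyou1 and Pdia4, Per2 in nm8, and Dsp in the samples other than skm5.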
